A study of Mus musculus with 8 samples.

Results

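The regions described here are 385 peaks of open chromatin with fewer ATAC counts in nuclei rich in Sox9 RNA than in nuclei of the same libraries without it, out of 116068 peaks in the series. The series profiled RNA and ATAC of the same single nuclei (10x multiome) from mouse lung alveolarspheres, cultured spheres that grew, free of serum and feeders, out of alveolar type II cells taken from young and old mice. On day 9 the cultures received an adeno-associated virus of serotype 9 with Cre alone (AAV9_Cre; genotype Cre, treatment control) or with Sox9 and Cre (AAV9_Sox9Cre; genotype Sox9Cre, treatment Sox9 overexpression), and then 4 days of medium that drives differentiation into type I cells. Cells positive for the tdTomato reporter were sorted before nuclei were taken, so both groups carry Cre and passed the same gate. The labels give 8 samples, 2 for each virus and each readout, and put no age on any sample. The series asks how extra Sox9 acts on the plasticity of type II cells.

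Deposited matrices pool 7224 nuclei. Barcodes begin with 1 of 4 prefixes, which are named A, B, C and D here, sorted by name, and treated as libraries. No label ties a library to a virus or an age. The pooled matrix is therefore 1 sample without replicates, libraries are not called treated or control, no p-value was computed, and intervals are 95% intervals for counting error only. Sox9 stood at 1.08 UMIs (unique molecular identifiers, tags that let each caught RNA molecule be counted once) per 10000 in library C and 0.939 in D, against 0.0147 in A and 0.0142 in B. Whether a Sox9 UMI was read from the virus or from the cell's own gene cannot be told apart here. Median depth per nucleus ranged from 9784 to 11732 UMIs over the libraries, and from 3641 to 13982 ATAC counts in peaks. Of the barcode sequences, 20 occurred in more than 1 library, 6 of them in the Sox9-high group defined next. Without these barcodes the rule took 378 peaks, 351 of them among those described.

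The rule used libraries C and D, the 2 richest in Sox9. It set 311 nuclei with 5 or more Sox9 UMIs (Sox9-high; 197 in C, 114 in D) against 3449 nuclei with 0 (2130 in C, 1319 in D), leaving out nuclei with 50 or more UMIs per 10000 of the airway genes Scgb3a1 and Bpifa1. Each peak's share of all counts in the 0 group was multiplied by the total of the Sox9-high group (4860898 counts) to give the counts predicted there. A peak was a member if at least 30 counts were predicted and the observed number was 0.4 times the prediction or less. Of the 43419 peaks with at least 30 predicted counts, 385 (0.887%) met the limit. The members were thus chosen by these counts, which are given as a description. The Sox9-high nuclei were also deeper, with medians of 14352 UMIs and 13667 ATAC counts against 10579 and 10371 in the 0 group, while their median mitochondrial share was close (5.90% against 6.01%). The part of depth in the ratios was not tested. With 0-group nuclei limited to RNA totals from the 10th percentile of the Sox9-high group up, the rule took 398 peaks, of which 348 were among the 385. With 5 or more Sox9 UMIs per 10000 as the high group it took 638, of which 112 were among the 385.

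ATAC counts mark stretches of DNA that a transposase can reach, mainly promoters, where transcription starts, and distal elements such as enhancers, which act on genes from afar and differ most between cell types. Sox9 is a transcription factor with an HMG-box DNA-binding domain, known in the lung from the growing distal tips of the embryo and elsewhere as the main driver of cartilage. In the alveolus, type II cells make surfactant and give rise to flat type I cells, which form the gas exchange surface, by way of a transitional state rich in keratins.

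Few members were promoters. A promoter window from RefSeq (GRCm38.p6; 250 bases before to 50 after a transcription start) overlapped 7 of the 370 members on the chromosomes with windows (1.89%, exact binomial interval 0.764 to 3.86), against 25.1% of all peaks with at least 30 predicted counts. Members were weaker peaks (median 38.9 predicted counts, against 61.9 over all peaks tested). Among tested peaks whose predicted counts lay between the quartiles of the members, 7.39% overlapped a window. Windows covered 81.8% of protein-coding genes on those chromosomes, and no genome sequence was used here, so letters can be shown for these few members only. In 5 of them the 250 bases before a start lay inside the peak. Those of Sec14l3, Usp13 and Gm19522 are shown, 5′ to 3′ on the gene's strand: Sec14l3 because its RNA was also lower, Usp13 as a window without a match and Gm19522 as one with matches to more than 1 motif. Capitals mark matches to the motifs searched.
Sec14l3: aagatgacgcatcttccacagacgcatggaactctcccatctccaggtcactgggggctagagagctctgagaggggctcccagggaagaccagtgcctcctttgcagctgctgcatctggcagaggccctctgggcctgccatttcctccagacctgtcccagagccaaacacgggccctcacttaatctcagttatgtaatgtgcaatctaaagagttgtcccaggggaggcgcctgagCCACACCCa
Usp13: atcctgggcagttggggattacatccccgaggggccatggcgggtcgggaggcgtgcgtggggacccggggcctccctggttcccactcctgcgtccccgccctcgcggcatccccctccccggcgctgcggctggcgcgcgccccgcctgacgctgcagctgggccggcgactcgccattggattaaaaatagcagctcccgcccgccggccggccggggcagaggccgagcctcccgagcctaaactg
Gm19522: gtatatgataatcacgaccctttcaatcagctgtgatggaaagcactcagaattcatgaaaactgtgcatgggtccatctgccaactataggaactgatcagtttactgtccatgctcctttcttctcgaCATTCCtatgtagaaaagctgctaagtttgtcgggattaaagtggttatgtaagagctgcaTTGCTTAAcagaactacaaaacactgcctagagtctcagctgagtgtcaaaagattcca

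The windows lie at chr11:4064603-4064852 (plus strand), chr3:32817376-32817625 (plus) and chr16:42912071-42912320 (minus). Ratios of observed to predicted counts in their peaks were 0.385, 0.388 and 0.305. The search took 12 motifs on both strands, and each is given with its share of 32817 RefSeq promoter windows of the same length. The motif taken for SOX factors was ACAANG, held by 36.3% of windows. That for the lung lineage factor NKX2-1 was CACTNNAG (12.9%), and that for CEBP factors was TTGCNNAA (9.57%). For TEAD factors, partners of YAP, it was GGAATG (12.6%), and for the AP-1 family it was TGANTCA (6.75%). Forkhead factors were given TGTTTAC (3.16%), while ETS factors were given CNGGAAG (26.6%). For KLF factors the letters were GGGNGTGG (15.9%), and for GATA factors they were AGATAA (9.99%). RUNX factors were given TGTGGTT (4.39%), grainyhead factors were given AACCNGTT (1.78%), and for NFI its full palindrome was searched (0.0366%). The Sec14l3 window held 1 KLF match, that of Gm19522 held 1 CEBP and 1 TEAD match, which do not overlap, and that of Usp13 held none of the 12. Over all 5 member windows, 2 held TEAD, 2 KLF, 1 SOX, 1 CEBP and 1 ETS matches, and none held the other motifs. A match describes letters, not binding, and 5 windows are too few to set a share against these.

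Distances to gene ends were longer for the members than over all peaks tested. The median distance from the middle of a member to the nearest end of a RefSeq gene was 11201 bp, against 3326 bp over all peaks tested. Of the members 70.4% lay over 5000 bp from any gene end (43.02% of all tested) and 14.8% over 50000 bp (5.17%). Inside a gene lay 252 of 385 members (65.5%, against 77.6% of all tested). These distances and shares were not matched for peak level or promoter overlap, so they are not separate from the low promoter share. The gene table gives no exons, so introns and exons were not told apart. Peak widths were close (medians of 929 and 919 bp).

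**Figure D1:**
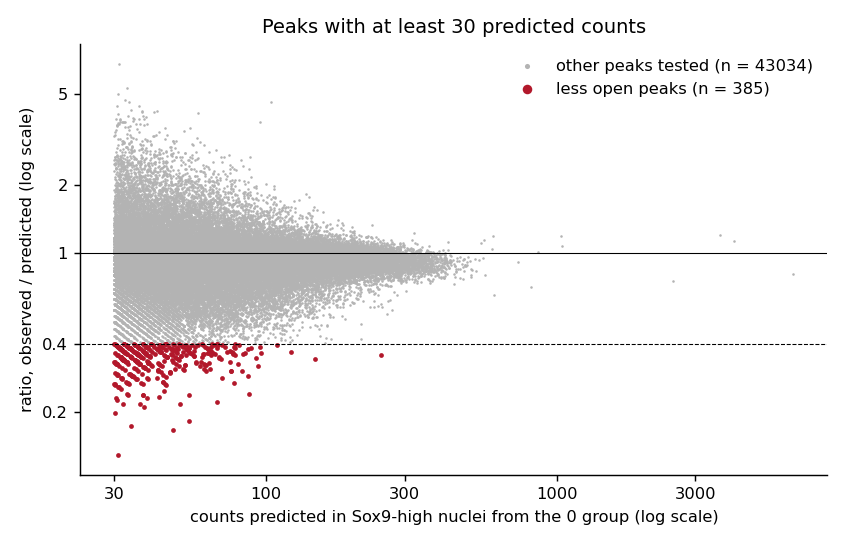
Ratio of observed to predicted ATAC counts in Sox9-high nuclei (vertical, log scale) against the predicted counts (horizontal, log scale) for the 43419 peaks tested. The 385 members (red) lie under the dashed line at 0.4 and have mostly under 100 predicted counts, where the spread of all peaks (grey) is widest.

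Over the members the ratio ran from 0.13 to the limit, with a median of 0.357, where all tested peaks had a median of 0.926 (log2 -0.11). With ratios divided by that median, 245 of the 385 stayed at or under 0.4. The upper end of the interval was at or under 0.4 for 7 of the 385, and its highest value was 0.710. The rule, with its minimum of predicted counts, holds these upper ends low. The 3 members nearest the limit, at Ulk4, 17752 bp from 4930404I20Rik and 32939 bp from Efcab14, each had 13 counts against 32.5 predicted. The 3 peaks just outside, at Kcnk10, Gm31820 and Slc38a4, had 15, 15 and 24 counts against 37.5, 37.5 and 59.8. In the other direction, 260 tested peaks (0.599%) had a ratio of 2.5 or more.

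The largest deficit belonged to a peak 4974 bp beyond an end of Cldn18, which encodes a tight junction claudin of the alveolar epithelium (chr9:99684915-99685822, GRCm38, outside any gene). It held 50.6 CPM (counts per 1000000 counts in peaks) in the 0 group of library C, 51.4 in that of D, 50.6 in library A and 47.5 in B, and 21.1 and 14.8 in the Sox9-high nuclei of C and D. The groups of nuclei without Sox9 and the Sox9-poor libraries thus lay together. Both Sox9-high groups, whose counts helped choose the peak, lay far below. A count was seen in 20.6% of Sox9-high and 37.4% of 0-group nuclei. In nuclei of C and D that the rule did not use, the level was 42.6 with 1 to 2 Sox9 UMIs and 34.96 with 3 to 4. Its ratio was 0.359 (0.287 to 0.444). The RNA of Cldn18, a readout the rule did not use, stood at 3.25 UMIs per 10000 in the Sox9-high nuclei of C and 3.62 in those of D, against 13.3 and 13.6 in the 0 groups (ratio 0.252, 0.240 to 0.265).

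A peak at chr10:56099657-56100573 inside Tbc1d32, a gene of cilium-linked signalling, and Msl3l2, which overlaps it, held 31.8 and 28.9 CPM in the 0 groups of C and D and 8.90 and 12.5 in the Sox9-high nuclei. Msl3l2 RNA had a ratio of 0.445 (0.251 to 0.734) and Tbc1d32 RNA one of 0.771 (0.624 to 0.944). A peak at chr14:54415131-54415974 inside Slc7a7, which encodes an amino acid transporter subunit, held 25.5 and 24.7 against 12.2 and 5.54. Its RNA was at 0.396 of the 0 group (0.322 to 0.482), from 0.570 to 0.187 UMIs per 10000 in C and from 0.523 to 0.271 in D. At the Cldn18 and Slc7a7 peaks the Sox9-high group of C lay above that of D, and at the Tbc1d32 peak below it. Neither group reached a 0 group, but these counts chose the peaks, and all 385 members had ratios under 1 in both libraries.

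Inside Phactr1, a regulator of actin and of a protein phosphatase, the peak at chr13:42878076-42879022 held 15.4 and 18.7 CPM in the 0 groups and 4.82 and 5.54 in the Sox9-high nuclei of C and D. In libraries A and B it held 27.6 in the type I range defined below, 19.3 in the type II range and 1.57 in the transitional range. Phactr1 RNA was at 0.279 of the 0 group (0.209 to 0.366). Inside Itpk1, an inositol phosphate kinase, the peak at chr12:102570471-102571404 held 19.4 and 16.5 in the 0 groups and 4.82 and 3.69 in the Sox9-high nuclei, with 24.1, 19.6 and 4.71 in the type I, type II and transitional ranges of A and B. Itpk1 RNA, from 29 UMIs in Sox9-high nuclei, was at 0.687 (0.454 to 1.004). Both peaks were thus lowest in the transitional range in libraries that the rule did not use. That range held 2.55e+06 counts in peaks in A and B, so these low levels rest on few counts. The Slc7a7 peak was not lowest there, with 23.1 CPM, against 21.5 in the type II and 41.2 in the type I range. The Tbc1d32 peak held 24.7 in the transitional range, against 32.4 in the type II and 43.2 in the type I range.

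At another strong member the RNA of the gene was close to that of the 0 group. Mark2, a kinase of cell polarity, held a member at chr19:7286416-7287371 (19.5 and 18.5 CPM against 6.31 and 6.93), while its RNA was at 1.04 (0.960 to 1.13). Further members among the 12 with the largest deficits lay inside Dnajc5b, 1542 bp from Gm14314, 2997 bp from Olfr71, 38807 bp from Gm34756 and 49765 bp from Gm40176, with ratios of 0.393, 0.365, 0.320, 0.270 and 0.289. Nearness does not show which gene a peak acts on.

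**Figure D2:**
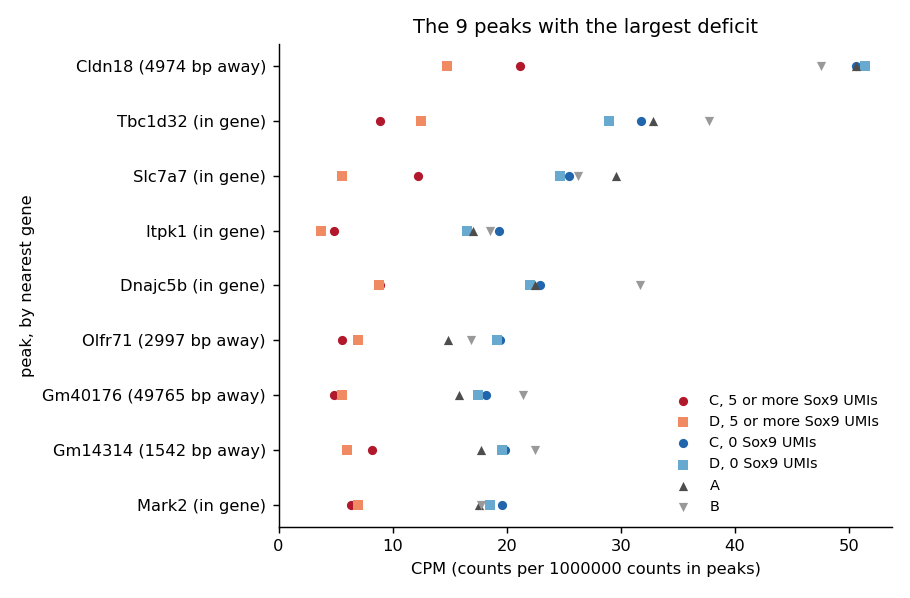
CPM, counts per 1000000 counts in peaks (horizontal), at the 9 members with the largest deficit, named by nearest gene, in the Sox9-high and 0-group nuclei of libraries C and D and in all nuclei under the airway limit of A and B. At the Cldn18 peak the Sox9-high groups stand at 21.1 and 14.8 and the other points between 47.5 and 51.4.

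The 5 lowest ratios rested on few counts. They were 0.130 inside Fam126a (4 counts against 30.9 predicted), 0.168 inside Ctnna3, which encodes an alpha-catenin of cell junctions (8 against 47.7), 0.175 inside Maml3, a coactivator of Notch (6 against 34.3), 0.184 inside Cdc42bpa, a kinase bound by Cdc42 (10 against 54.4), and 0.199 at 6901 bp from Polg, the mitochondrial DNA polymerase (6 against 30.2). Library D held 0 counts of the Fam126a peak in its 114 Sox9-high nuclei. RNA ratios of these genes were 0.714 (0.573 to 0.881), 1.44 (1.08 to 1.89), 0.844 (0.797 to 0.893), 0.912 (0.840 to 0.988) and 0.917 (0.763 to 1.09).

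Of protein-coding genes, Prr5l and Slco3a1 had the most members within 2000 bp, 3 of 10 tested peaks each. Slco3a1 encodes an organic anion transporter. Its members at chr7:74483698-74484623, chr7:74438130-74438966 and chr7:74284878-74285808 had ratios of 0.381, 0.334 and 0.228. Slco3a1 RNA stood at 2.46 and 2.12 UMIs per 10000 in the 0 groups of C and D, against 0.662 and 0.665 in the Sox9-high nuclei (ratio 0.285, 0.254 to 0.319). At Prr5l, whose product binds the mTOR complex 2, the ratios were 0.331, 0.349 and 0.338 and RNA was at 0.598 (0.407 to 0.852). A further 10 genes had 2 members. Among them Tns1, which encodes the adhesion protein tensin, had RNA at 0.280 (0.233 to 0.334), and Dapk1, a death-associated kinase, had 2 of 16 tested peaks with ratios of 0.332 and 0.279 and RNA at 0.946 (0.899 to 0.995).

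The same nuclei were low in several RNAs of mature type I cells. Of the 22 type I genes listed, 19 had at least 30 predicted UMIs and 13 of these were at 0.5 of the 0 group or less, with none at 2-fold or more (median ratio 0.407). Over all 10199 genes with that many predicted UMIs, 3.07% were at 0.5 or less and 2.87% at 2-fold or more (median 0.992). Ager, a receptor gene typical of type I cells, was at 0.312 (0.302 to 0.322) and Aqp5, a water channel gene, at 0.407. Of 22 type II genes 4 were at 0.5 or less (median 0.650), with the surfactant gene Sftpc at 0.473. Of 20 transitional genes none was at 0.5 or less (median 1.15) and 3 were at 2-fold or more, Clu (2.56), Lgals3 (2.22) and Fosl1 (2.12). The keratin genes of that list stood at 1.04 (Krt8), 0.946 (Krt18), 0.664 (Krt7) and 0.570 (Krt19). Of 77 tested peaks within 2000 bp of a type I gene 2 were members, of 54 near a type II gene 0, and of 61 near a transitional gene 0. Of all tested peaks 0.887% were members, so these counts are too small to tell the lists apart. The type I genes with a member were Pdpn, the podoplanin gene (chr4:143300794-143301719, 1230 bp away, ratio 0.381), with RNA at 0.232 (0.115 to 0.419), and Sema3a, which encodes a secreted semaphorin (chr5:13338367-13339276, inside the gene, ratio 0.399), with RNA at 0.316 (0.277 to 0.359).

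Genes beside members were more often low in RNA than genes beside other peaks. Within 2000 bp of a member lay 244 genes of the RNA matrix, of which 178 had at least 30 predicted UMIs. Of these, 22 (12.4%) were at 0.5 of the 0 group or less, against 2.92% of 9868 genes beside any tested peak. At 2-fold or more were 3 (1.69%), against 2.9%. The median ratio was 0.900, against 0.993. With the prediction matched on library and RNA programme, as defined below, the medians were 0.914 and 0.976. Of the 178 genes, 116 (65.2%) had a ratio under 1, against 51.1% of genes beside any tested peak. Most counted genes with a less open peak thus had RNA between 0.5 and 2-fold of the 0 group. The lowest RNA ratios were those of Wnt3a, a WNT ligand gene (0.130, 4 UMIs), Batf, a factor of the AP-1 family (0.138, 6 UMIs), and Sec14l3, which encodes a SEC14-like lipid-binding protein (0.180, 0.142 to 0.224). Usp13, a deubiquitinase gene, had too few predicted UMIs to be counted, with 0 UMIs in Sox9-high nuclei and 104 in the 0 group (upper end of the ratio's interval 0.309). Sec14l3 went from 0.963 to 0.127 UMIs per 10000 in C and from 0.888 to 0.237 in D. Also low, with values chosen after they were seen, were the calcium channel gene Cacna1c (0.382), the kinase gene Dapk2 (0.347), the glycosyltransferase gene Galnt18 (0.379) and the guidance receptor gene Robo1 (0.412). The 3 genes at 2-fold or more were Plcb1, a phospholipase C (3.06, 2.55 to 3.67), Lnx1, a ubiquitin ligase (2.46, 2.09 to 2.90), and Tmcc3 (2.12, 1.78 to 2.5).

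Nuclei with fewer Sox9 UMIs, which the rule did not use, lay between the groups it compared. Summed over the 385 peaks, nuclei with 1 to 2 Sox9 UMIs (1043) held 30.4 counts per 10000 counts in peaks (30.1 to 30.7) and those with 3 to 4 (267) held 26.9 (26.4 to 27.5). The 0 group, which the rule used, held 36.05. Nuclei with 0 Sox9 UMIs in libraries A and B, which it did not use, held 35.3 and 34.9, 35.2 together. Against these the summed level of nuclei with 1 to 4 Sox9 UMIs was 0.843 (0.833 to 0.853), 0.801 with library D alone and 0.874 with C alone. Single members followed: 294 of 385 (76.4%) were lower with 1 to 2 Sox9 UMIs than in A and B, and 319 (82.9%) with 3 to 4, while 50.3% and 53.8% of all tested peaks were. In these comparisons with A and B, Sox9 UMIs and library cannot be told apart. Within the Sox9-high group the level was 14.8 with 5 to 9 and 9.82 with 10 or more UMIs. The order was the same in C (31.4, 28.1, 15.1 and 10.6 from 1 to 2 up to 10 or more) and in D (28.9, 25.4, 14.2 and 9.10). Sox9 UMIs rise with depth, and median UMIs per nucleus rose along these groups too, from 10579 with 0 to 15371.5 with 10 or more.

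**Figure D3:**
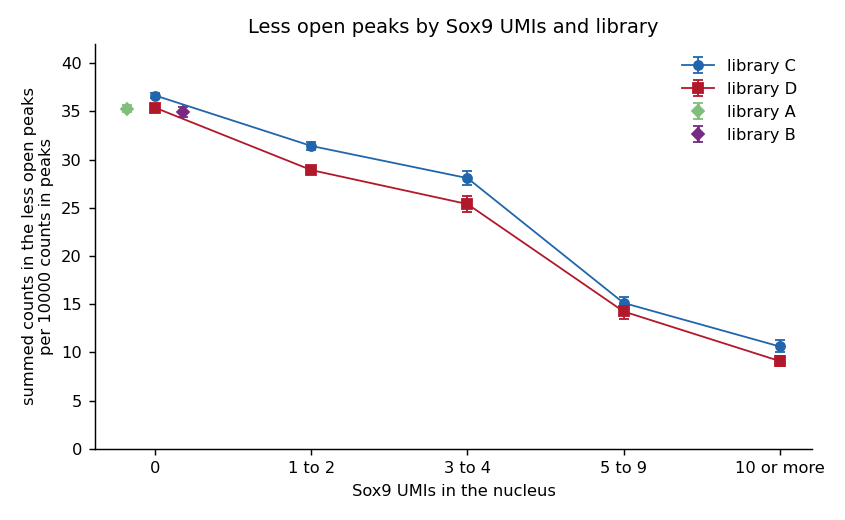
Summed counts in the 385 peaks per 10000 counts in peaks (vertical) by Sox9 UMIs per nucleus (horizontal), with exact Poisson intervals, in libraries C and D, and in nuclei with 0 Sox9 UMIs of A and B. Both lines go down at each step, from 36.7 and 35.4 to 10.6 and 9.10, and A and B (35.3 and 34.9) lie near the 0 groups.

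Choosing peaks in 1 library and reading them in the other gave weaker ratios of the same direction. The rule applied to C alone took 166 of 25045 peaks (0.663%), 61 of them among the 385. In D these had a median ratio of 0.508, 164 were under 1, and 42 (25.3%) were at or under 0.4, against 1.15% of the same 25045 peaks in D. The rule in D alone took 150 of 19865 peaks (0.755%), 30 of them among the 385. In C their median ratio was 0.579, all 150 were under 1, and 20 (13.3%) were at or under 0.4, against 0.373%. Over all peaks tested the medians were 0.920 and 0.923. The sizes of the ratios given for members in the pooled libraries are thus larger deficits than those read where peaks were not chosen. With nuclei of A and B as the 0 group the rule took 447 peaks, 261 of them members.

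Where these peaks are open among nuclei without much Sox9 was read in libraries A and B. Nuclei were put in the type II, type I or transitional range when their summed UMIs per 10000 for that gene list, and for no other, were at or over the 75th percentile (cuts of 935, 158 and 190.2). These are ranges of a score, not cell types, and 348, 698 and 534 of 7124 nuclei lay within 10% of a cut. In A the 385 peaks held 43.1 counts per 10000 in the type I range, 36.02 in the type II range and 24.1 in the transitional range. In B they held 44.9, 35.4 and 24.3. The type I range was highest and the transitional range lowest in both, with intervals apart. Of the 385 members, 235 (61.04%) were most open in the type I range, 110 (28.6%) in the type II range and 40 (10.4%) in the transitional range, against 30.2%, 37.2% and 32.6% of all tested peaks. At least 1.5-fold above the mean of the other ranges were 173 members in the type I range (44.9%, against 8.27% of all tested), 84 in the type II range (21.8%, against 10.9%) and 20 in the transitional range (5.19%, against 12.7%). At least 1.5-fold lower in the type II range were 16.9% of members, against 13.8% of all tested. The median fold there was 1.01, against 1.02, while in the type I range it was 1.43, against 0.995. Members were weaker peaks, and these shares were not matched for level. Genes beside members were also most often highest in the type I range: 109 of 178 genes (61.2%) had their highest RNA level there in A and B, against 34.7% of genes beside any tested peak.

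**Figure D4:**
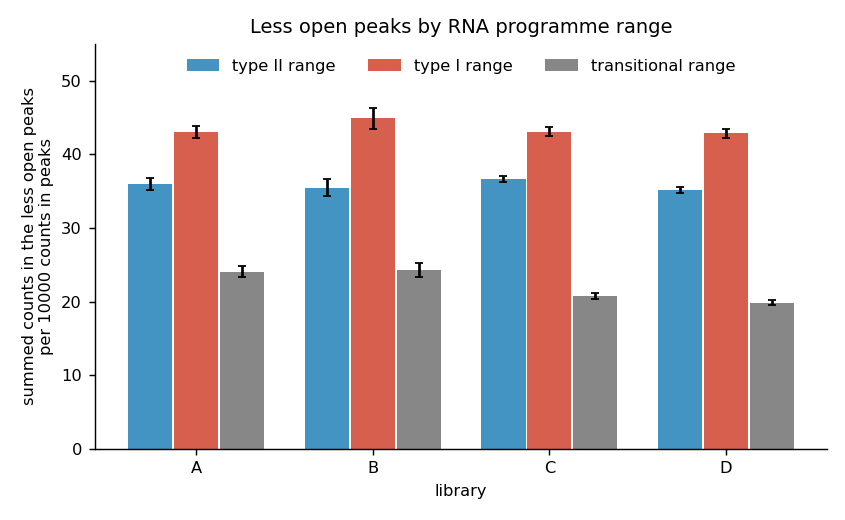
Summed counts in the 385 peaks per 10000 counts in peaks (vertical, bars from 0, exact Poisson intervals) in nuclei of the type II, type I and transitional ranges of each library (horizontal). In each of the 4 libraries the type I bar is highest, between 42.9 and 44.9, and the transitional bar lowest, between 19.8 and 24.3.

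The Sox9-high nuclei held few type I-range and many transitional-range nuclei. Of 311, 9 (2.89%) were in the type I range, against 18.3% of the 0 group, 33 (10.6%) in the type II range, against 25.3%, and 127 (40.8%) in the transitional range, against 14.6%. The transitional score is a sum of UMIs, and much of its rise came from Clu. The summed list stood at 190.7 per 10000 in Sox9-high nuclei and 132.7 in the 0 group. Clu alone stood at 76.75 and 30.001, while the median ratio of the listed genes was 1.15. The share of transitional-range nuclei without Clu in the score was not tested. The counts of the Sox9-high and 0 groups chose the members, so their levels inside each range are a description and do not show that a deficit persists there. In the transitional range they held 24.6 counts per 10000 with 0 Sox9 UMIs, 19.7 with 1 to 4 and 7.95 with 5 or more (ratio of the last to the first 0.323, 0.307 to 0.340). In the type II range they held 37.1, 34.8 and 21.2 (ratio 0.572, 0.537 to 0.610), and in the type I range 44.4, 38.7 and 28.8 (ratio 0.650, 0.596 to 0.707, from 9 nuclei). In nuclei high for none of the lists they held 34.95, 30.5 and 13.3 (ratio 0.381, 0.367 to 0.396). With the prediction matched on library and range, from the same counts, the members' median ratio was 0.406, and 185 of the 385 were at or under 0.4. Nuclei that the rule did not use allow a comparison inside a range: those with 1 to 4 Sox9 UMIs in C and D against those of A and B. These sides come from different libraries, so Sox9 UMIs and library cannot be told apart. Median ATAC counts per nucleus were 9600 in C and 13982 in D, against 4367 in A and 3641 in B. The levels of the members were 19.7 (19.3 to 20.1) and 24.2 (23.6 to 24.8) in the transitional range and 38.7 (37.8 to 39.5) and 43.5 (42.9 to 44.3) in the type I range, with intervals apart. In the type II range they were 34.8 (34.2 to 35.3) and 35.8 (35.2 to 36.5), with intervals that overlap. Whether nuclei inside a range differ in their programme along with Sox9 was not tested.

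**Figure D5:**
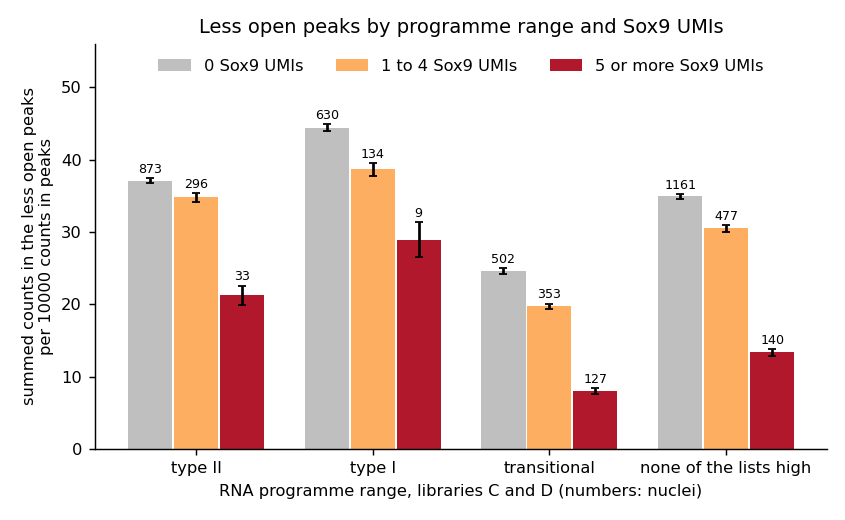
Summed counts in the 385 peaks per 10000 counts in peaks (vertical, bars from 0, exact Poisson intervals) for nuclei with 0, 1 to 4 and 5 or more Sox9 UMIs in libraries C and D, by programme range (horizontal; numbers above bars are nuclei). In each range the bar for 5 or more Sox9 UMIs, whose counts helped choose the peaks, is lowest, at 7.95 in the transitional and 28.8 in the type I range.

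Of 26 lung epithelial transcription factors and cofactors listed, 1 had RNA at 0.5 or less in Sox9-high nuclei, Hopx (0.442), a homeodomain gene high in type I cells, where 3.07% of all genes were that low. At 2-fold or more, as were 2.87% of all genes, were 4, Ehf, an ETS factor (5.64, 5.29 to 6.002), the stress-linked Atf3 (2.76), Fosl1 (2.12) and Cebpd (2.01). The lineage factor gene Nkx2-1 was at 0.709 (0.670 to 0.749), Cebpa at 0.626 and Foxa2 at 0.691, and Gata6 (1.06) and Tead1 (1.13) were close to the 0 group. Of the marker lists of other cell types, the cartilage list had the largest difference in summed UMIs per 10000 between the groups. Its summed level was 4.86 and 4.51 in the Sox9-high nuclei of C and D, against 1.096 and 1.01 in the 0 groups. Sox6, a partner of Sox9 in cartilage, made up 2.31 of 4.73 in the Sox9-high nuclei together, against 0.160 of 1.06. Sox5, the only other listed cartilage gene with at least 30 predicted UMIs, went the other way. It stood at 0.642 in the Sox9-high nuclei, against 0.851 in the 0 group (ratio 0.754, 0.669 to 0.848). The minimum rests on the 0 group and leaves out genes nearly absent there. Among these the cartilage collagen gene Col2a1 stood at 0.220 against 0.00417. Col9a3 stood at 0.566 against 0.00932, Col27a1 at 0.516 against 0.0101, Chst11 at 0.164 against 0.00245 and Col11a2 at 0.147 against 0.0137. Of the 15 genes listed, Acan, which encodes the cartilage proteoglycan aggrecan, and Matn1 were at 0 in Sox9-high nuclei. Immune genes stood at 2.04 against 2.82, of which Lyz2, also a type II gene, gave 1.98 and 2.75, and Ptprc, the pan-leukocyte marker, was at 0 in Sox9-high nuclei. Summed levels per 10000 in the Sox9-high and 0 groups were 1.37 and 2.92 for airway secretory, 0.0818 and 0.455 for ciliated, 0.0420 and 0.0302 for mesenchymal and 0.0839 and 0.0248 for endothelial genes, with 2 of 10, 0 of 6, 5 of 9 and 3 of 5 genes at 0 in Sox9-high nuclei. Basal genes stood at 0.0168 and 0.0228 and neuroendocrine genes at 0.0105 and 0.00809. As a ratio of summed levels over C and D together, ciliated genes differed more than cartilage genes. The part of these lists in the ratios of the members was not tested. Without the airway limit the rule took 367 peaks, 352 of them among the 385.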

How the data were processed

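Raw counts were used as deposited by the authors, UMI counts for genes and ATAC counts for peaks. The submitters' processing notes list 2 builds, mm10 and GRCm38, and the tools Signac 1.10.0, Seurat 4.3.0 and Cell Ranger 6.0.1, without saying what each did. For peak calling and nucleus filters, tools and settings were not given in the sources used here. All deposited nuclei were kept, and doublets were neither called nor removed. Lists of multiplexing oligos were not used.

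Counts were summed over nuclei in Python 3.11.15 (numpy 2.4.6, scipy 1.17.1, pandas 2.3.3, matplotlib 3.10.9). Ratios have exact conditional binomial, levels exact Poisson and shares exact Clopper-Pearson 95% intervals. The calculation was tested on simulated data. The build was checked: promoter windows overlapped 11.4% of peaks, and 2.05% after a shift of 100000 bp. Genes within 2000 bp came from the RefSeq table of GRCm38.p6, and distances to gene ends stand in for distances to starts. The minimum of 30 predicted UMIs rests on the 0 group alone. Sox9 was left out of RNA counts over genes. Without a genome, GC content and motif shares of whole peaks were not computed.

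Named peaks were the 12 largest deficits, the 5 lowest ratios, 3 on each side of the limit, those at listed genes and those of the 5 genes with most members (ties alphabetical); 1 of them is not reported here. Members and lists were chosen with earlier results of these data known.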

Additional observations from a re-analysis of the deposited data

How the results depend on the processing

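Of 20 alternatives to the rule, 8 gave a count of members within 1.5 times of 385. Of these, 10 or more Sox9 UMIs as the high group (416) shared 45 peaks with the 385, and the others shared 261 to 384. The remaining alternatives gave 175 with each peak counted as 0 or 1 per nucleus, 150 without library C, 166 without library D, 167 with 3 or more Sox9 UMIs as the high group, 638 with 5 or more Sox9 UMIs per 10000, 1364 at a ratio limit of 0.5, 66 at 0.3, 7 with the upper end of the interval at or under 0.4, 65 with at least 60 predicted counts, 1361 with at least 15, 224 with the prediction matched on programme range and 245 with ratios divided by the median of all peaks tested. The last 2, and leaving out shared barcodes (378), were chosen after seeing the data. Shared with the 385 were 154 of the 175, 30 of the 150, 61 of the 166, 29 of the 167, 112 of the 638 and 150 of the 224. The summed level with 1 to 4 Sox9 UMIs against A and B was 0.801 without library C and 0.874 without library D. The number of members most open in the type I range lay between 226 and 240 over its 4 alternatives, and the number of genes with RNA at 0.5 or less between 15 and 26 over its 3. With the middle 300 bases of each peak, 1.08% of members overlapped a promoter window. At a median of 13 observed counts per member, depth limits how well single peaks can be ranked. No paired analysis was possible because no label ties the nuclei to the numbered samples; for the same reason no labelled replicate could be left out.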

Other observations

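Members seldom lay near peaks that were more open in Sox9-high nuclei. A peak with a ratio of 2.5 or more lay within 50000 bp of 3 of 385 members (0.779%, exact binomial interval 0.161 to 2.26), against 1594 of 43419 tested peaks (3.67%), a count that includes the more open peaks themselves. These shares were not matched for distance to genes, which was longer for members. Whether less open and more open peaks lie apart beyond that was not tested. Another member lay within 50000 bp of 27 members (7.01%). The share of all tested peaks with a member that near was not computed, so no clustering can be read from this count.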
